A study of Mus musculus with 6 samples.

Results

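Killer lymphocytes, that is natural killer (NK) cells and cytotoxic T cells, destroy target cells by releasing granules that hold perforin, which opens membranes, and granzymes, the proteases that enter through them. Their surface receptors of the lectin-like and immunoglobulin-like families decide whether the granules are released. In lung tumors, transcripts of these genes are commonly read as a measure of the killer lymphocytes that a tumor holds. The 10 genes described here were Gzma, Gzmb, Gzmk and Prf1 (secreted effectors), Nkg7 and Ctsw (granule and membrane proteins) and Klrd1, Klrk1, Ncr1 and Klre1 (receptors), chosen by gene symbol from the 31130 genes measured. All 10 had a row in each of the 6 tables. In the tumors with interstitial pneumonia, Gzmb was 3.68-fold higher and Gzma was 2.52-fold lower, 6 members did not pass the test, and Gzmk and Ncr1 had too few molecules to be tested.

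The tissue came from wild-type female C57BL/6 mice aged 6 to 8 weeks at the start, all of which received Lewis lung carcinoma (LLC) cells in the left lung on day 14. LLC is an established mouse lung tumor line, here with enhanced GFP, so the tumors are those of 1 transplanted line. In IP+LC, the model in which the tumor grew in a lung with interstitial pneumonia (n = 3), the lungs had first been injured with 2.0 mg/kg bleomycin, an agent that causes lung fibrosis, given on day 0 by oropharyngeal aspiration; the model of lung cancer alone (LC, n = 3) had no bleomycin. Tumor tissue was taken on day 21, and its RNA was counted from the 3′ end with unique molecular identifiers (UMIs), each standing for 1 captured molecule. Nothing in the labels ties the 3 samples of a group to separate mice, and p-values therefore measure the spread between these samples.

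The libraries held 592733 UMIs in LC replicate 1 and 1336919 to 1631066 in the other 5. LC replicate 1 stood apart: across genes its log2 level correlated with the other LC libraries at r = 0.822 and 0.767 and with the IP+LC libraries at 0.779 to 0.801, against 0.949 between LC replicates 2 and 3 and 0.966 to 0.972 within IP+LC. Levels are given as counts per 1000000 UMIs of the tested genes (CPM) after scaling by the trimmed mean of M values (TMM), and 3 UMIs correspond to 5.17 CPM in LC replicate 1 and to 1.75 to 2.54 CPM elsewhere. Of 11240 genes with enough UMIs to test, edgeR's quasi-likelihood test at an adjusted p below 0.1 called 36.4%, with 16.8% higher and 19.6% lower in IP+LC, and their fold changes had a median of 0.02 on the log2 scale. The labels call the sampled cells lung cancer cells, but 7 of 7 alveolar epithelial markers were measured, at a summed level of 36458 to 45344 CPM in LC and 6363 to 11493 CPM in IP+LC, so the RNA is that of tissue with host cells in it. In such bulk RNA, fewer cells of a type and less RNA per cell cannot be told apart.

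Gzma lies on chromosome 13 (113093825 to 113100981, minus strand) and Gzmb on chromosome 14 (56258838 to 56262260, minus strand), both in GENCODE M21 on GRCm38, the build the counts were made on. RefSeq holds promoter windows for 8 of the 10 members. The bases before the RefSeq start of both called members are shown because these genes moved in opposite directions, and capitals mark the letters that match a searched motif on either strand (AP-1, TGANTCA; RUNX, TGTGGT; T-box, GTGTGA).
Gzma (GRCm38.p6, chr13:113100982-113101231, minus strand): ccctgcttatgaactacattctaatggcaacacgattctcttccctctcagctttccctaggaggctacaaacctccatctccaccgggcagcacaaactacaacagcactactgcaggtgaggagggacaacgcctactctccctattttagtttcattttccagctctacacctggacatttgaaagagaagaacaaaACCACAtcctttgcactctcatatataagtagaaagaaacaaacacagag
Gzmb (GRCm38.p6, chr14:56262335-56262584, minus strand): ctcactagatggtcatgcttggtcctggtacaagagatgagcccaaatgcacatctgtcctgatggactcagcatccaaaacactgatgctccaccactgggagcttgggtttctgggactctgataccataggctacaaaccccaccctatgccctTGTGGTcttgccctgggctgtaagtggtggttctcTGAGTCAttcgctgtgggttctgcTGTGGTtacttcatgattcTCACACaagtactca
The Gzma stretch held 1 RUNX match and none of the other motifs. The Gzmb stretch held 1 AP-1 match, 2 RUNX matches and 1 T-box match, and no marked match overlapped another. A RUNX match was present in 8 of the 10 windows of 7 of the 8 members, counting from 250 bases before to 50 bases after the start, and in 16.8% of 32851 such windows of all genes. The share over all windows was 7.81% for AP-1, present in 2 member windows, and 14.5% for T-box, present in 7 member windows of 5 of the 8 members. Ncr1 and Klre1 had overlapping windows, so the same match can count in more than 1 of them. The STAT motif (TTCNNNGAA) and the CRE motif (TGACGT) were each present in 2 member windows and in 8.30% and 7.51% of all windows, and the Gzmb window held 1 of each after the start, outside the stretch shown. These are matches of letters only, and RefSeq places the Gzmb start upstream of the GENCODE start given above.

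Gzmb encodes granzyme B, which cleaves caspases and other substrates in the target cell and is made in large amounts by activated killer lymphocytes. Its UMI counts were 4, 19 and 15 in LC replicates 1 to 3 and 47, 112 and 49 in IP+LC replicates 1 to 3. These are 6.89, 14.9 and 12.7 CPM in LC and 34.1, 65.4 and 35.6 CPM in IP+LC. Every IP+LC tumor lay above every LC tumor, and IP+LC replicate 2 was the highest of all. The mean rose from 11.5 ± 4.14 CPM to 45.0 ± 17.7 CPM (SD, n = 3 each), with a log2 fold change of 1.88 (SE 0.37, 95% interval 1.05 to 2.71, adjusted p = 0.00688, edgeR). Without IP+LC replicate 2 it was 1.53 (adjusted p = 0.0351, edgeR), and over all alternatives the adjusted p ran from 3.17e-08 to that value.

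Gzma encodes granzyme A, a tryptase of the same granules that is abundant in resting NK cells. It moved the other way. Its UMI counts were 43, 126 and 136 in LC and 53, 69 and 50 in IP+LC, which are 74.0, 98.7 and 115 CPM against 38.4, 40.3 and 36.3 CPM. All 3 IP+LC tumors lay close together and below all 3 LC tumors. The mean fell from 96.0 ± 20.7 CPM to 38.3 ± 1.99 CPM (SD, n = 3 each), with a log2 fold change of -1.34 (SE 0.22, 95% interval -1.84 to -0.84, adjusted p = 0.00354, edgeR). The alternatives gave -1.46 to -1.16, with adjusted p-values of 4.90e-06 to 0.0339.

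**Figure D1:**
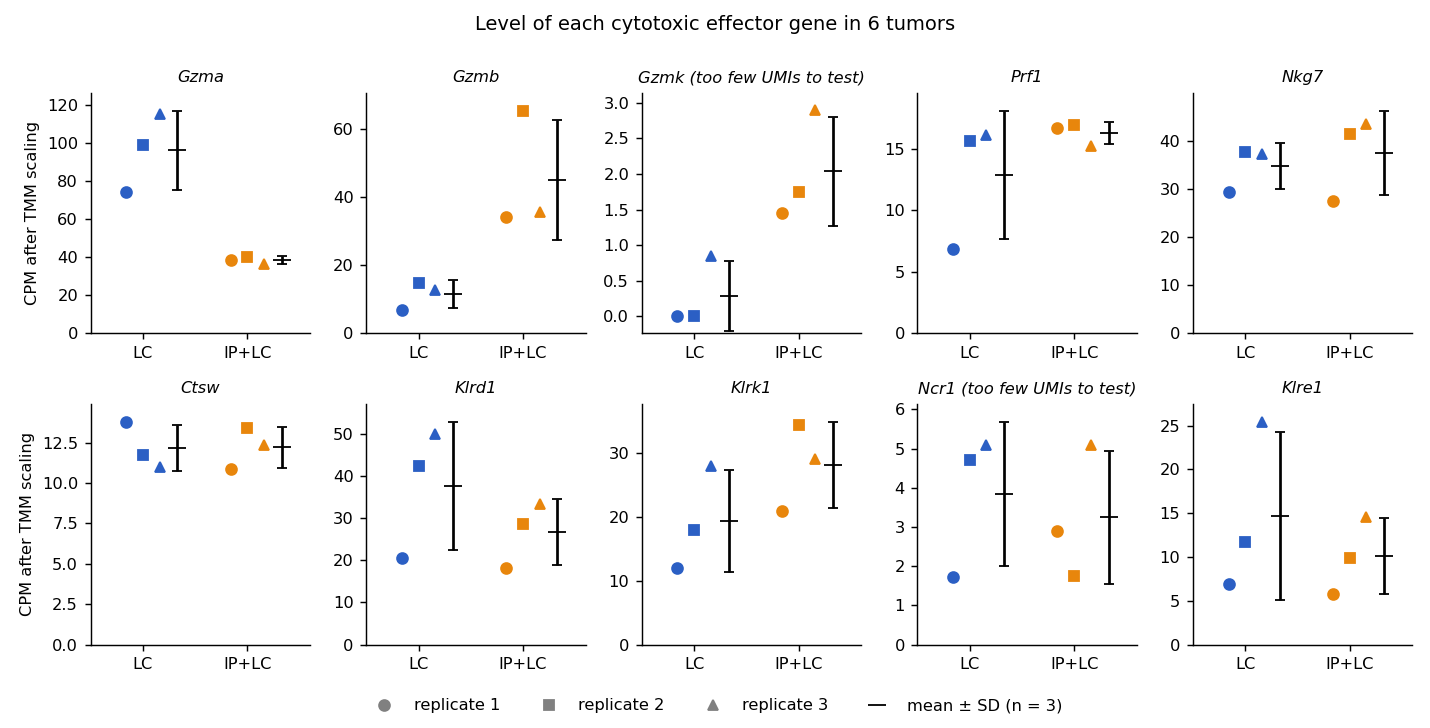
CPM after TMM scaling (vertical axis, a scale of its own for each gene) of the 10 members in the 3 LC (blue) and 3 IP+LC (orange) tumors, with a symbol for each replicate and the mean ± SD in black. Gzma and Gzmb are the tested members whose groups do not overlap, with Gzma at 36.3 to 40.3 CPM in IP+LC and at least 74.0 CPM in LC.

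Of the 8 tested members 1 was higher and 1 lower, beside 16.8% and 19.6% of all tested genes, and the groups did not overlap for 2 of the 8, beside 43.1% of all tested genes. The share of called members was 25% beside 36.4%. Without IP+LC replicate 2, LC replicate 2 or IP+LC replicate 1 the background was 19.2%, 22.4% and 22.6%, with the same number of members called, so the members' share lay near the background and on either side of it. The members' median was 0.06 on the log2 scale, beside 0.02 over all tested genes. Summed over the 10 members, the level was 172, 255 and 302 CPM in LC and 177, 254 and 228 CPM in IP+LC, which overlapped. LC replicate 1 was the lowest LC tumor for 8 of the 10 members and IP+LC replicate 1 the lowest IP+LC tumor for 7 of them.

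Together with Gzmk, the granzymes of the list can be read as a composition, which does not depend on the scaling between libraries. Gzmb made up 8.51%, 13.1% and 9.87% of the Gzma, Gzmb and Gzmk UMIs in LC replicates 1 to 3, of 47, 145 and 152 UMIs. In IP+LC replicates 1 to 3 it made up 46.1%, 60.9% and 47.6%, of 102, 184 and 103 UMIs. The groups were far apart: the highest upper bound of the 95% Wilson intervals in LC was 19.9% and the lowest lower bound in IP+LC was 36.7%. These intervals cover counting error only. The mean share was 10.5 ± 2.36% in LC and 51.5 ± 8.14% in IP+LC (SD, n = 3 each), a difference of 41.0 percentage points, and the exact permutation test gave p = 0.1 (two-sided), the smallest that 3 samples against 3 allow. On the log2 scale, with 0.5 UMI added to each count, the Gzmb to Gzma ratio was -3.27, -2.70 and -3.14 in LC and -0.17, 0.69 and -0.03 in IP+LC, a difference of 3.20. These values restate the changes of both genes as a ratio and are not a separate line of evidence.

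**Figure D2:**
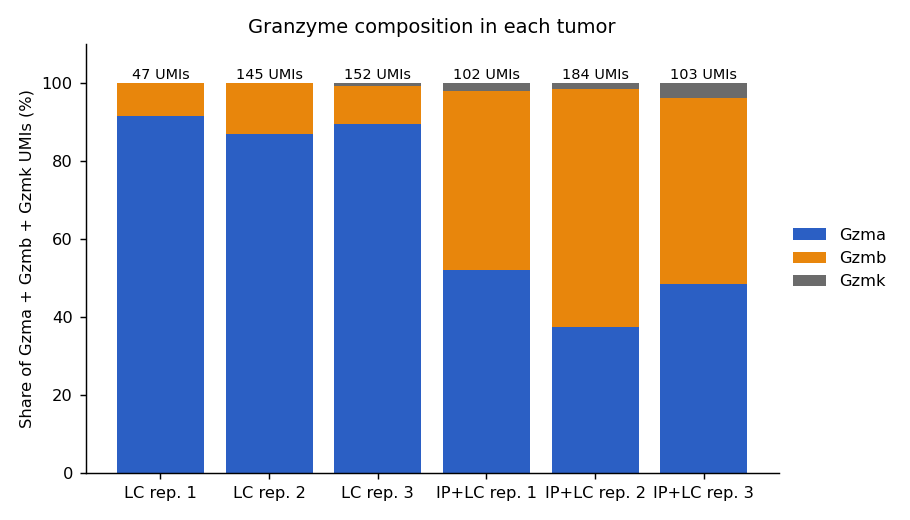
Stacked bars of the share (percent, vertical axis from 0) of Gzma (blue), Gzmb (orange) and Gzmk (grey) among their summed UMIs in each of the 6 tumors, with the number of UMIs above each bar. Gzmb takes 8.51 to 13.1% of the bar in LC and 46.1 to 60.9% in IP+LC.

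Gzmk encodes granzyme K, a tryptase typical of memory-like CD8 T cells, and was too low to test. It had 0, 0 and 1 UMIs in LC and 2, 3 and 4 in IP+LC. The summed counts of 9 against 1 UMIs correspond to a depth-adjusted ratio of 6.95, with an exact 95% counting interval of 0.963 to 305, and edgeR without the filter on low counts gave a log2 fold change of 2.42 (SE 1.48, adjusted p = 0.348). A change of Gzmk was not detectable at this depth. Its counts did not overlap between the groups, in a range where single molecules set the order.

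Prf1 encodes perforin, without which granzymes do not reach the target cell. Its UMI counts were 4, 20 and 19 in LC and 23, 29 and 21 in IP+LC, or 6.89, 15.7 and 16.1 CPM against 16.7, 16.9 and 15.2 CPM. Apart from LC replicate 1 all libraries lay near the same level, and the groups overlapped. The means were 12.9 ± 5.20 CPM and 16.3 ± 0.905 CPM (SD, n = 3 each), and the log2 fold change was 0.24 (SE 0.32, 95% interval -0.49 to 0.97, adjusted p = 0.610, edgeR). The upper bound for perforin lay below the lower bound of 1.05 for Gzmb, and the difference between both genes was not tested.

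Nkg7, a granule membrane protein of NK and T cells that takes part in granule release, had 17, 48 and 44 UMIs in LC and 38, 71 and 60 in IP+LC. These are 29.3, 37.6 and 37.3 CPM against 27.6, 41.4 and 43.6 CPM, with overlapping groups. The log2 fold change was 0.09 (SE 0.24, 95% interval -0.46 to 0.64, adjusted p = 0.813, edgeR). Ctsw, a cysteine protease (cathepsin W) made mainly by NK and cytotoxic T cells, had 8, 15 and 13 UMIs in LC and 15, 23 and 17 in IP+LC. Its mean level was 12.2 ± 1.43 CPM in LC and 12.2 ± 1.28 CPM in IP+LC (SD, n = 3 each), and the log2 fold change of 0.04 had a 95% interval of -0.62 to 0.69 (adjusted p = 0.943, edgeR). Both intervals exclude changes of the size seen for Gzma and Gzmb. The exons of Ctsw overlap those of Fibp on the other strand over 0.477% of their bases, and no member shared a stretch of 81 bases, the length of the insert read, with another gene's transcript at an identity of 95% or more.

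Of the 4 receptor members 3 were tested, and none was called. Klrd1 encodes CD94, which pairs with NKG2 chains and binds Qa-1. It had 12, 54 and 59 UMIs in LC and 25, 49 and 46 in IP+LC, or 20.7, 42.3 and 49.998 CPM against 18.1, 28.6 and 33.4 CPM. LC replicates 2 and 3 lay above all IP+LC tumors while LC replicate 1 lay among them. The log2 fold change was -0.56 (SE 0.33, 95% interval -1.31 to 0.19, adjusted p = 0.246, edgeR). Without LC replicate 1 it was -0.77 (adjusted p = 0.0151, edgeR). With all libraries, limma voom with sample weights also called Klrd1 lower (-0.72, adjusted p = 0.0311). Whether Klrd1 was called thus depended on that library and on the method. These fits called 57% and 55.5% of all tested genes, beside 36.4% in edgeR with all libraries.

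Klre1, an NK cell receptor that works with other lectin-like chains, had 4, 15 and 30 UMIs in LC and 8, 17 and 20 in IP+LC. Its level was 6.89, 11.8 and 25.4 CPM in LC and 5.80, 9.92 and 14.5 CPM in IP+LC, so the groups overlapped and LC spread over a wide range. The log2 fold change was -0.63 (SE 0.49, 95% interval -1.73 to 0.46, adjusted p = 0.366, edgeR). It became -0.85 without LC replicate 1 (adjusted p = 0.0966) and -0.01 without LC replicate 3 (adjusted p = 0.995, edgeR). Over all alternatives that gave a value it ran from -0.93 to -0.01, so the estimate depended on which libraries were kept.

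Klrk1 encodes NKG2D, the activating receptor for stress-induced ligands of the RAE-1, H60 and ULBP1 families. It had 7, 23 and 33 UMIs in LC and 29, 59 and 40 in IP+LC, or 12.1, 18.0 and 27.97 CPM against 21.03, 34.4 and 29.0 CPM. The highest LC tumor lay above the lowest IP+LC tumor. The log2 fold change was 0.48 (SE 0.32, 95% interval -0.25 to 1.22, adjusted p = 0.304, edgeR). Ncr1, which encodes NKp46 and marks NK cells and related innate lymphocytes, had 1, 6 and 6 UMIs in LC and 4, 3 and 7 in IP+LC and was too low to test. The summed counts of 14 against 13 UMIs gave a depth-adjusted ratio of 0.831, with an exact 95% counting interval of 0.362 to 1.92, and edgeR without the filter gave a log2 fold change of -0.24 (SE 0.80, adjusted p = 0.891).

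**Figure D3:**
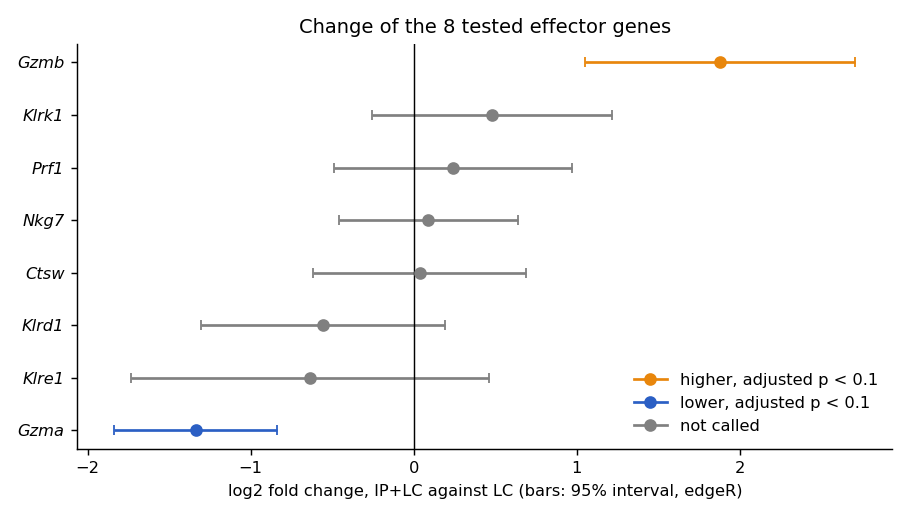
Log2 fold change of IP+LC against LC (horizontal axis) with its 95% interval from edgeR for the 8 tested members, coloured orange where called higher, blue where called lower and grey where not called. Only the intervals of Gzmb (1.05 to 2.71) and Gzma (-1.84 to -0.84) leave out 0.

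The wider pathway was read from lists of genes that act with the members. Of the other granzymes 6 had a row, and none passed the filter on low counts. Gzmc was at 0 UMIs in all LC tumors and at 1, 7 and 2 in IP+LC, Gzmm at 1, 4 and 1 against 2, 2 and 3, Gzmf at 0 in every library, and Gzmd, Gzme and Gzmg had at most 3 UMIs in a library. Without the filter edgeR called Gzmc higher (adjusted p = 0.0891) and no other gene of this list. That fit called 16.4% of 29423 genes. Of 12 genes of granule assembly, release and inhibition all were tested, 2 were higher and none lower, with a median log2 fold change of 0.27. Ctsc encodes cathepsin C, the protease that removes the propeptide of granzymes and of other serine proteases. It rose from 342 to 468 CPM in LC to 805 to 1088 CPM in IP+LC (log2 fold change 1.23, adjusted p = 0.00560, edgeR) and kept this call under all 16 alternatives. Ctsc is also made by myeloid cells, and the summed level of the macrophage list was 624 to 2416 CPM in LC and 2302 to 2915 CPM in IP+LC, a relation that was not tested. Serpinb9b, a serpin related to the granzyme B inhibitor, was higher by 1.43 on the log2 scale (adjusted p = 0.0942, edgeR), but its groups overlapped and 8 of 16 alternatives did not call it, while without LC replicate 1 it was higher by 2.43 (adjusted p = 5.97e-05, edgeR). Serpinb9, the inhibitor itself, stood at a log2 fold change of 0.35 (adjusted p = 0.329, edgeR).

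Of the 7 death ligands and cytokines of killer cells 3 were tested, 1 higher and 1 lower, with a median of -0.21. Xcl1, the chemokine that draws cross-presenting dendritic cells, had 4, 5 and 4 UMIs in LC and 20, 32 and 33 in IP+LC, a clear separation with a log2 fold change of 2.11 (SE 0.40, adjusted p = 0.00583, edgeR). Xcl1 reached the level of the filter, 7.41 per 1000000 UMIs of the whole library without TMM scaling, in IP+LC libraries only. Tnfsf10, which encodes the death ligand TRAIL, fell by 1.00 on the log2 scale (adjusted p = 0.0380, edgeR), from 34.4 to 79.7 CPM in LC to 27.4 to 37.8 CPM in IP+LC, with overlapping groups, and 5 of 16 alternatives did not call it. Ifng and Tnf, both under the filter on low counts, are named after their values were seen. Ifng, interferon gamma, was at 0 UMIs in all 3 LC libraries and at 8, 14 and 11 in IP+LC, at least 2.18-fold higher against a floor of 3 UMIs per LC library. Tnf was at 0, 3 and 0 UMIs in LC and at 8, 13 and 12 in IP+LC. No IP+LC library was as low as any LC library for these cytokines. In edgeR without the filter, Ifng (adjusted p = 0.000111) and Tnf (adjusted p = 0.00948) were called higher, and Fasl (adjusted p = 0.591) and Csf2 (adjusted p = 0.920) were not called. That fit called 16.4% of 29423 genes. Its adjusted p-values could be much smaller than those with the filter: Gzmb was at 3.17e-08 (edgeR without the filter) against 0.00688 (edgeR with it).

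Of 23 other receptors and adaptors of killer cells 16 were too low to test, and of the 7 tested 2 were higher and 1 lower, with a median log2 fold change of 0.06. Slamf7, a receptor of NK cells, activated T cells and some myeloid cells, had 2, 13 and 10 UMIs in LC and 24, 64 and 38 in IP+LC (log2 fold change 1.77, adjusted p = 0.0141, edgeR). The groups did not overlap. Klrb1b, an inhibitory receptor, had 7, 11 and 6 UMIs against 23, 44 and 19 (log2 fold change 1.23, adjusted p = 0.04997, edgeR), a call that 4 of 15 alternatives did not keep. Klrb1c, the NK1.1 antigen and the marker by which NK cells of this strain are usually stained, had 8, 11 and 15 UMIs in LC and 8, 10 and 8 in IP+LC. It was lower by CPM in every IP+LC tumor (log2 fold change -0.95, adjusted p = 0.0707, edgeR), a call that 8 of 15 alternatives did not keep and that rests on few molecules. Klrb1c reached the level of the filter in LC libraries only.

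Among 8 transcription factors of killer cells 6 were tested and 1 was higher, with a median of 0.29. Runx3, a factor that CD8 T cells and NK cells need to mature and that other leukocytes also express, had 3, 5 and 9 UMIs in LC and 28, 81 and 43 in IP+LC. This was the widest separation of the factors tested (log2 fold change 2.55, SE 0.44, adjusted p = 0.00424, edgeR), it was called under all 16 alternatives, and only IP+LC libraries reached the level of the filter. Tbx21, which encodes T-bet, had 0, 2 and 2 UMIs in LC and 3, 8 and 5 in IP+LC and was under the filter on low counts. Eomes, the related factor, had 2, 6 and 7 UMIs in LC and 13, 18 and 6 in IP+LC, with overlapping counts, and was under the filter too. In edgeR without the filter only 1 transcription factor was called, which was Runx3, so Tbx21 and Eomes were not called there.

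The ligands of the member receptors were measured in the same tissue. Of 6 listed, 3 were tested and 2 were higher, with a median log2 fold change of 1.25. Ulbp1, a ligand of NKG2D, had 22, 10 and 10 UMIs in LC and 83, 97 and 73 in IP+LC (log2 fold change 1.90, SE 0.48, adjusted p = 0.0188, edgeR). Every IP+LC tumor was above every LC tumor. LC replicate 1 was the highest LC tumor, at 37.9 CPM, and leaving it out gave 2.79 on the log2 scale (adjusted p = 8.00e-07, edgeR). H2-T23, which encodes Qa-1, the molecule that CD94 with its NKG2 partner binds, rose from 77.5 to 115 CPM in LC to 133 to 194 CPM in IP+LC (log2 fold change 0.83, adjusted p = 0.0305, edgeR), and 2 of 16 alternatives did not call it. Raet1e stood at a log2 fold change of 1.25 with an SE of 0.75 (adjusted p = 0.251, edgeR), with LC replicate 1 at 24.1 CPM above all 3 IP+LC tumors at 10.9 to 21.01 CPM. Leaving that library out gave 2.97 (SE 0.54, adjusted p = 0.000364, edgeR).

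The cytokine axis that drives granzyme and perforin expression, that of interleukins 2, 12, 15 and 18, had 7 of 11 genes tested, 4 higher and 2 lower, with a median of 1.099. Il15ra, which presents interleukin 15, rose by 1.33 on the log2 scale (adjusted p = 0.0121, edgeR). Il2rg, the shared gamma chain, rose by 1.27 (adjusted p = 0.0127, edgeR), and Il18rap, a chain of the interleukin 18 receptor, by 1.29 (adjusted p = 0.0121, edgeR). All 3 were called under all 16 alternatives. In the other direction, Il18r1, the ligand-binding chain of the interleukin 18 receptor, fell by 1.57 (adjusted p = 0.0141, edgeR), and Il18 fell by 0.86 (adjusted p = 0.0283, edgeR), a call lost in 3 of 16. The ligand gene Il15 was not called (log2 fold change -0.46, adjusted p = 0.408, edgeR). LC replicate 1 also bore on the pathway counts. Without it, 57% of all tested genes were called, beside 36.4% with all libraries. In that fit 3 genes of granule assembly, 3 other receptors and adaptors and 1 transcription factor were lower. In the same fit 3 death ligands and cytokines and 3 ligands of the member receptors were higher. The count of higher death ligands and cytokines moved in 5 of 16 alternatives, so that move was not particular to LC replicate 1.

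**Figure D4:**
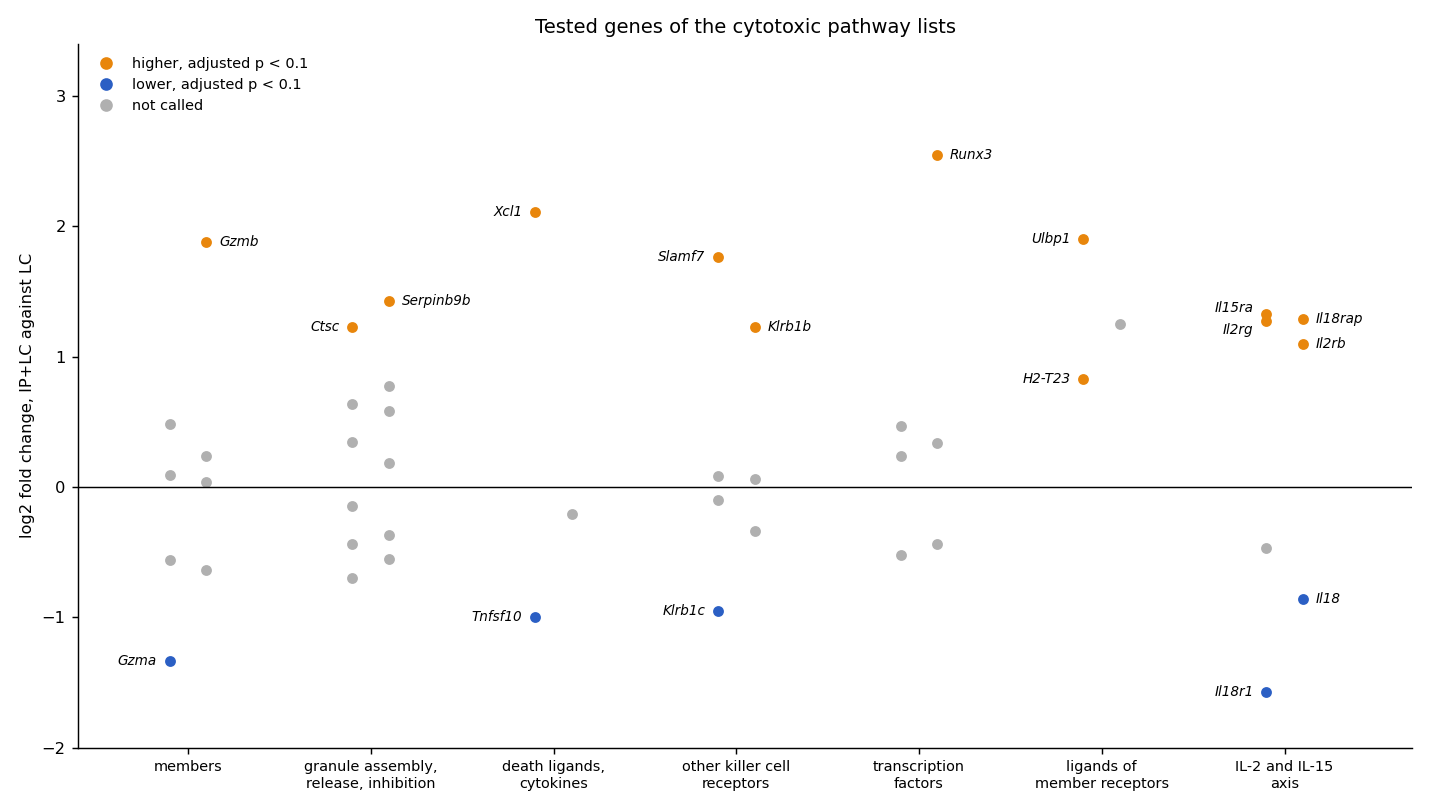
Log2 fold change of IP+LC against LC (vertical axis) of every tested gene of the member list and of 6 pathway lists, side by side in columns, orange where called higher, blue where called lower (both named) and grey where not called. Gzmb (1.88), Xcl1 (2.11), Runx3 (2.55) and Ulbp1 (1.90) lie highest in their lists, and Gzma (-1.34) and Il18r1 (-1.57) lowest in theirs.

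The cell types that could carry these transcripts were followed by their own marker lists. The 9 NK cell markers summed to 105, 97.9 and 142 CPM in LC and 102, 121 and 98.8 CPM in IP+LC, with overlapping groups, and of the 4 tested 1 was higher (Il2rb, log2 fold change 1.099, adjusted p = 0.0685, edgeR, not called in 6 of 16 alternatives) and 1 lower (Klrb1c, tested through its LC libraries alone), with a median of -0.15. The sum hides genes that moved apart. Of the 5 too low to test, Eomes was higher by mean CPM (4.69 in LC, 8.10 in IP+LC). Klra8 (12.0, 4.75), Klra9 (12.2, 1.79), Klri2 (7.46, 3.69) and S1pr5 (4.18, 0.967) were lower. Among these 5, only the S1pr5 groups did not overlap. Without LC replicate 1, a fit in which Klrd1 and Klre1 were called lower as well, 3 NK cell markers were lower. That fit called 57% of 11748 tested genes, beside 36.4% with all libraries. The 13 T cell markers summed to 279, 366 and 317 CPM against 251, 390 and 404 CPM, again overlapping, and of the 11 tested none was higher and 1 was lower (Cd2, log2 fold change -0.77, adjusted p = 0.0401, edgeR), with a median of 0.11, and 6 of 16 alternatives did not call Cd2. Cd3e, a chain of the T cell receptor complex, had 0, 20 and 17 UMIs in LC and 21, 40 and 26 in IP+LC. Cd8a, a chain of the CD8 coreceptor, had 0, 13 and 11 UMIs in LC and 9, 44 and 33 in IP+LC (log2 fold change 1.30, SE 0.65, adjusted p = 0.171, edgeR), while Cd8b1, the other chain, had 14, 28 and 21 against 13, 34 and 28 (log2 fold change -0.33, adjusted p = 0.502, edgeR). Neither CD8 chain was called in this fit, but Cd8a was called higher without the filter on low counts (adjusted p = 0.00674, edgeR) and without IP+LC replicate 1 (log2 fold change 1.73, adjusted p = 0.0904, edgeR). The CD4 and regulatory T cell list, with 6 of 7 genes too low to test and a log2 fold change of 0.47 for the other, Ikzf2, summed to 29.3 to 45.8 CPM in LC and 47.1 to 82.1 CPM in IP+LC, and its defining gene Foxp3 had 1, 1 and 2 against 1, 5 and 5 UMIs. The activation genes of the list are named after their values were seen: Ctla4 had 0, 3 and 1 UMIs in LC and 6, 19 and 12 in IP+LC, and Tnfrsf4 had 3, 2 and 1 against 8, 23 and 17. Without the filter edgeR called Ctla4 (adjusted p = 0.00902), Tnfrsf4 (adjusted p = 0.00366) and Il2ra (adjusted p = 0.0550) higher, and Foxp3, Cd4 and Tnfrsf18 were not called. The fit without the filter called 16.4% of 29423 genes.

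Gzmb was also set against the NK and the T cell list, and Gzma against the NK cell list only. The log2 ratio of Gzmb to the summed NK cell markers was higher in IP+LC by 1.997 and that of Gzmb to the summed T cell markers by 1.81, and the log2 ratio of Gzma to the NK cell markers was lower by 1.20 (-0.50, 0.01 and -0.30 in LC, -1.39, -1.58 and -1.43 in IP+LC). None of these ratios overlapped between the groups, and each gave an exact permutation p = 0.1 (two-sided; Benjamini-Hochberg adjusted p = 0.1 over the 5 ratio values tested), the smallest possible with these samples. Klra4 and Il2rb had the highest means of the NK cell list, at 36.1 and 19.1 CPM in LC and 37.7 and 38.1 CPM in IP+LC. By mean CPM, Klrb1c, Klra8, Klra9, Klri2, S1pr5 and Txk were lower in IP+LC and Eomes was higher. The size of the ratios to this list thus depends on which genes carry the sum, and other sums were not tried. Gzma and Gzmb had been called before the ratios were formed, so the ratios describe size and do not tell apart cell number and RNA per cell.

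Gzmb can also be made by mast cells, basophils and plasmacytoid dendritic cells. The mast cell and basophil list summed to 158, 204 and 223 CPM in LC and 107, 60.7 and 91.5 CPM in IP+LC, with 2 of 3 tested genes lower (Kit, log2 fold change -1.65, and Hdc, -1.06) and a list median of -1.06. The other 7 genes of the list summed to 21, 31 and 35 UMIs in LC and 40, 17 and 6 in IP+LC, which overlapped, and the part of these cells in the Gzmb level was not tested. Of its defining genes, Mcpt8 was near 0, with 1, 1 and 4 UMIs in LC and 2, 0 and 1 in IP+LC, and Cpa3 had 5, 7 and 7 against 10, 6 and 1 UMIs, which overlapped. Of the plasmacytoid dendritic cell list 3 of 6 genes were tested, with Bst2 higher (log2 fold change 1.09, not called in 4 of 16 alternatives), which many cell types express under interferon, and Cox6a2 lower (-2.29), and the list median was -0.36. Its defining gene Siglech had 1, 7 and 15 UMIs in LC and 6, 16 and 8 in IP+LC, which overlapped. Of the gamma delta T cell list only Blk could be tested (log2 fold change -1.85), a gene that B cells express too and that reached the level of the filter in LC libraries only. Trdc, the constant region of the delta chain and the only other gene of the list with a row, was too low to test, with 0, 2 and 1 UMIs in LC and 5, 8 and 5 in IP+LC.

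Other cells of the tissue moved with the groups. All 6 B cell markers (median log2 fold change -1.45), all 6 endothelial markers (-1.74) and all 7 alveolar epithelial markers (-1.94) were lower in IP+LC, as were 3 of 6 neutrophil markers (-1.34) and all 4 tested erythroid markers (-1.66). Of 8 macrophage markers 3 were higher and of 5 pan-leukocyte markers 1 was higher, with medians of 0.82 and 0.36, and none of these 4 calls was kept under all 16 alternatives. Without LC replicate 1, whose macrophage sum was the highest of LC, 7 macrophage and 3 pan-leukocyte markers were higher, and leaving out any other library left 0 macrophage markers called. The fit without LC replicate 1 called 57% of all tested genes, beside 36.4% with all libraries. With all libraries, limma voom with sample weights and edgeR without the filter also called 7 macrophage markers higher. Among the lower lists, no erythroid marker was called without IP+LC replicate 1 or without IP+LC replicate 2, 1 was called without LC replicate 3 and 2 without LC replicate 2, and 3 B cell markers were called without LC replicate 2, IP+LC replicate 1 or IP+LC replicate 2. The endothelial, alveolar epithelial and neutrophil markers called lower kept their calls under all 16 alternatives. The endothelial list summed to 1443 to 2198 CPM in LC and 397 to 497 CPM in IP+LC. The part of these other cells in the levels of the members was not tested.

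**Figure D5:**
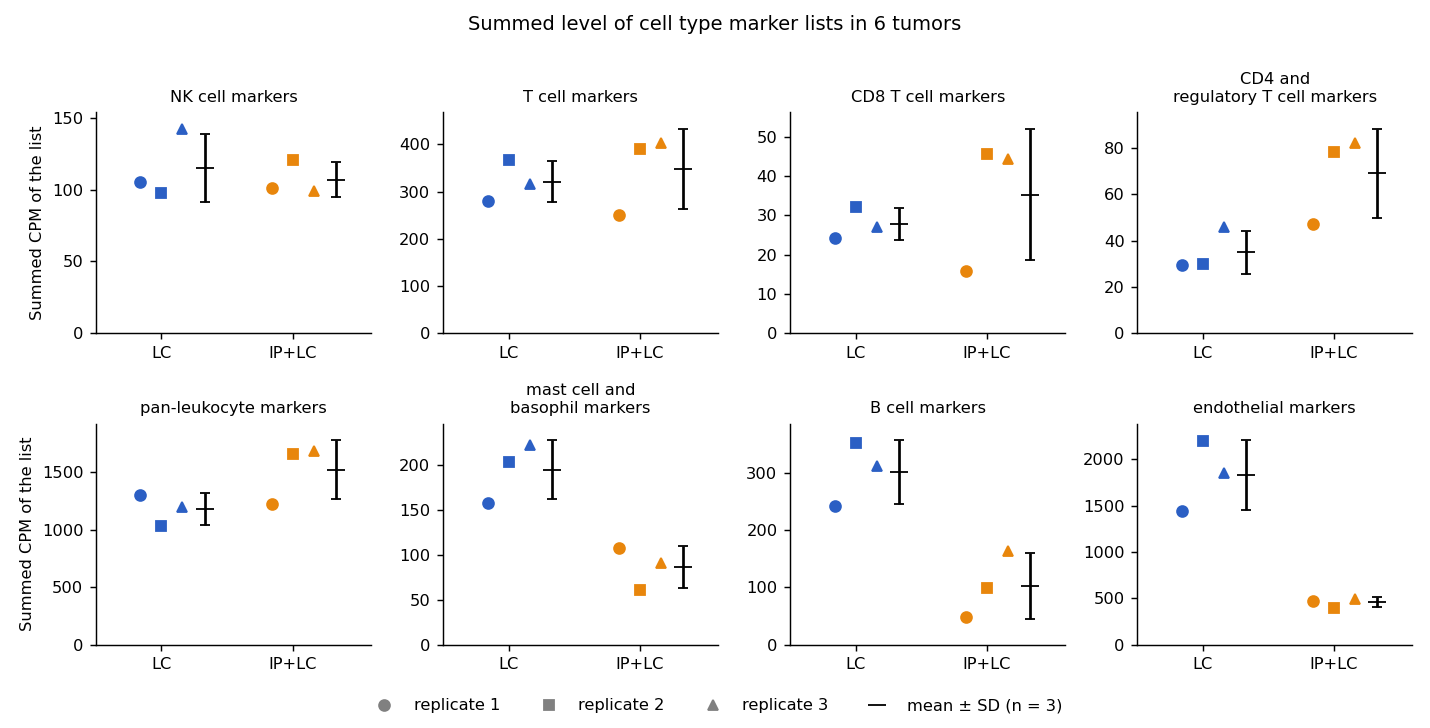
Summed CPM (vertical axis, a scale of its own for each list) of 8 cell type marker lists in the 3 LC (blue) and 3 IP+LC (orange) tumors, with a symbol for each replicate and the mean ± SD in black. The NK and T cell sums overlap between the groups, whereas the endothelial sums, at 1443 CPM or more in LC and 497 CPM or less in IP+LC, do not.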

How the data were processed

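RNA of 3 LC and 3 IP+LC tumor samples was measured by bulk RNA barcoding and sequencing. The authors extracted UMIs with UMI-tools 1.1.1, trimmed with Trim Galore 0.6.7, aligned to GRCm38 with HISAT2 2.2.1 and assigned reads with featureCounts 2.0.1. The deposited values are UMI counts per gene without normalization, 1 table per tumor. The annotation release and the strand setting are not given in the sources used here, so reads of overlapping genes on opposite strands may not be told apart.

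Counts were tested here in R 4.3.3 with edgeR 4.0.16 (quasi-likelihood, TMM, filterByExpr with 10 UMIs in a library of median size and 15 in all), with Benjamini-Hochberg adjustment over all tested genes and the study's threshold of 0.1. A gene could pass this filter through 1 group alone. Ratios were compared by exact permutation. Alternatives included other scalings and filters, DESeq2 1.42.0, limma 3.58.1 with sample weights, thinning to 592733 UMIs and leaving out each library. The procedure was checked on simulated counts. Total counts ranged from 592733 to 1631066, and intervals on counts cover counting error only. Promoters came from RefSeq and gene positions from GENCODE M21, with shared sequence sought by blastn 2.17.0.

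The members and lists were chosen with earlier results of these data known. All 10 members are named whatever their values. Each other list is given by its counts and median, with up to 5 called genes of smallest adjusted p, and defining markers are given by UMIs. No protein sequences were used here.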

Additional observations from a re-analysis of the deposited data

How the results depend on the processing

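Gzmb (1.53 to 2.09) and Gzma (-1.46 to -1.16) kept their direction and their call under all 16 alternatives, and the granzyme ratios kept their direction in each alternative run for them, where designs without a library cannot reach an exact p below 0.2. The number of members called lower was 2 with limma voom and sample weights, which added Klrd1 (-0.72, adjusted p = 0.0311), and ran from 1 to 3 when single libraries were left out, the 3 being without LC replicate 1. limma voom called 55.5% of all tested genes and edgeR without LC replicate 1 called 57%, beside 36.4% with edgeR on all libraries. Uncalled members near 0 changed sign: Nkg7 was at -0.0013 with limma voom, and Ctsw at -0.021 with upper quartile scaling and at -0.043 to 0.134 without single libraries. After thinning to the smallest library, Prf1, Ctsw and Klre1 were under the filter and had no value. Over all genes, 1885 were higher and 2203 lower. limma voom called 3180 higher, thinning gave 1014 higher and 1338 lower, and leaving out single libraries gave 897 to 3324 higher and 1368 to 3367 lower, with the lowest counts without IP+LC replicate 2 and the highest without LC replicate 1. Without LC replicate 2 the count of higher genes was 1016, and without IP+LC replicate 1 it was 1088. Scaling by library size alone moved the median log2 fold change from 0.02 to 0.18 and gave 2520 higher and 1800 lower.

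The groups share replicate numbers. Deviations from the group means correlated at 0.03, -0.12 and 0.11 for equal numbers, and not every sample correlated best with its own number. With 3 samples per group such values cannot exclude a pairing by number. With the replicate block, Cd8a was called higher (1.51, adjusted p = 0.0553), 1 member was higher (Gzmb 1.92, adjusted p = 0.00803) and 1 lower (Gzma -1.31, adjusted p = 0.0150), among 1599 genes higher and 1811 lower, and the paired sign-flip test of the ratios could not go below p = 0.25 (exact). Depth limited Gzmk, Ncr1 and the lists with few tested genes: LC replicate 1 held the fewest UMIs, and a member at under 3 UMIs there could lie anywhere below 5.17 CPM.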
